A study of Homo sapiens with 4 samples.

Results

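Blood vessel growth is steered by a small set of secreted factors and by the receptors that read them. Vascular endothelial growth factor A (VEGFA) is the main signal that makes endothelial cells divide and migrate, and its relative VEGFB acts mostly through FLT1. Adrenomedullin (ADM) is a vasodilator peptide that is induced by low oxygen, the angiopoietins ANGPT1 and ANGPT2 act on the receptor TEK to stabilise or loosen vessels, and FGF2 is a growth factor for endothelial cells and fibroblasts. THBS1, thrombospondin, restrains vessel growth through CD36 and CD47, and PECAM1 (CD31) is an adhesion molecule of endothelial junctions, platelets and many leukocytes.

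These 8 genes were described on the arrays of a SOX11 knockdown in Z138, a human cell line established from mantle cell lymphoma. That tumour arises from B cells and usually expresses SOX11, a transcription factor of neural development. All 27 probe sets that the platform annotation assigns to exactly 1 of the 8 symbols were taken, out of 54675 probe sets on the array, and the 8 genes are 8 of 19775 with such a probe set. Total RNA of 4 samples of Z138 cells, stably transduced with lentiviral short hairpin constructs, was hybridised to 4 arrays, 1 per sample. The shControl group held 2 scramble constructs (shControl.1 and shControl.2, the control arrays below) and the shSOX11 group held 2 constructs against SOX11 (shSOX11.1 and shSOX11.3, the knockdown arrays), with no other treatment or time named. Each array stands for another construct, and separate cultures of a construct are not named, so that p-values reflect the spread among these samples alone, possibly a technical one. The labels name no cell type other than the lymphoma line in the samples. So few arrays limit how precise any value can be. With 2 arrays a group, the smallest two-sided p that exact permutation allows is 0.33.

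SOX11 itself was lower on both knockdown arrays, at 335 and 339 against 797 and 787 at its probe set with the highest mean signal (log2 change -1.23, SE 0.15, limma adjusted p = 0.131 over 11938 genes). The 9 B-cell markers analysed were above the signal threshold of 24.83, the median over the whole table, on 3 or more arrays each, 8 of them on all 4. Their levels were mostly lower on the knockdown arrays, with a lower value for 8 of the 9 (7 after quantile normalization, where CCND1 turned), a median log2 change of -0.61 against -0.063 over all 11938 genes, and an unadjusted limma p under 0.05 for 4 (SOX11, CD79B, EBF1 and PAX5), where 4.98% of all genes were lower by this measure. None passed limma's adjusted p. SOX11 is counted among the 9, the 8 and the 4, and enters the median. As the target of the hairpins its fall was set by the design, so it is not read against that share. The median signal was 25.7 and 25.3 on the control arrays and lower on both knockdown arrays, at 24.3 with shSOX11.1 and 23.9 with shSOX11.3. Beta-actin control probe sets read a transcript at its 3′ and its 5′ end, and the ratio of these signals was 11.6 on each control array, 7.29 with shSOX11.1 and 5.31 with shSOX11.3. The same ratio for GAPDH was 0.98 and 1.06 on the control arrays and 1.01 and 1.03 on the knockdown arrays. The beta-actin ratio moved with the groups while the GAPDH ratio overlapped, and the part of this measure of RNA length and labelling in the results below was not tested. The 2 knockdown arrays lay further apart than the 2 control arrays, with a median absolute deviation of the log2 difference of 0.285 against 0.175.

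Of the 27 probe sets, 8 were above the threshold on all 4 arrays and 14 on none. The 11 that were above it on at least 2 arrays were tested, and they stand for 6 of the 8 genes, since ANGPT2 and FGF2 had none. The 16 left out had a median signal of 5.11, and all but 2 of their 64 values were under the threshold. MAS5 values carry a large relative error at such signals, so no order of arrays is read from them.

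**Figure D1:**
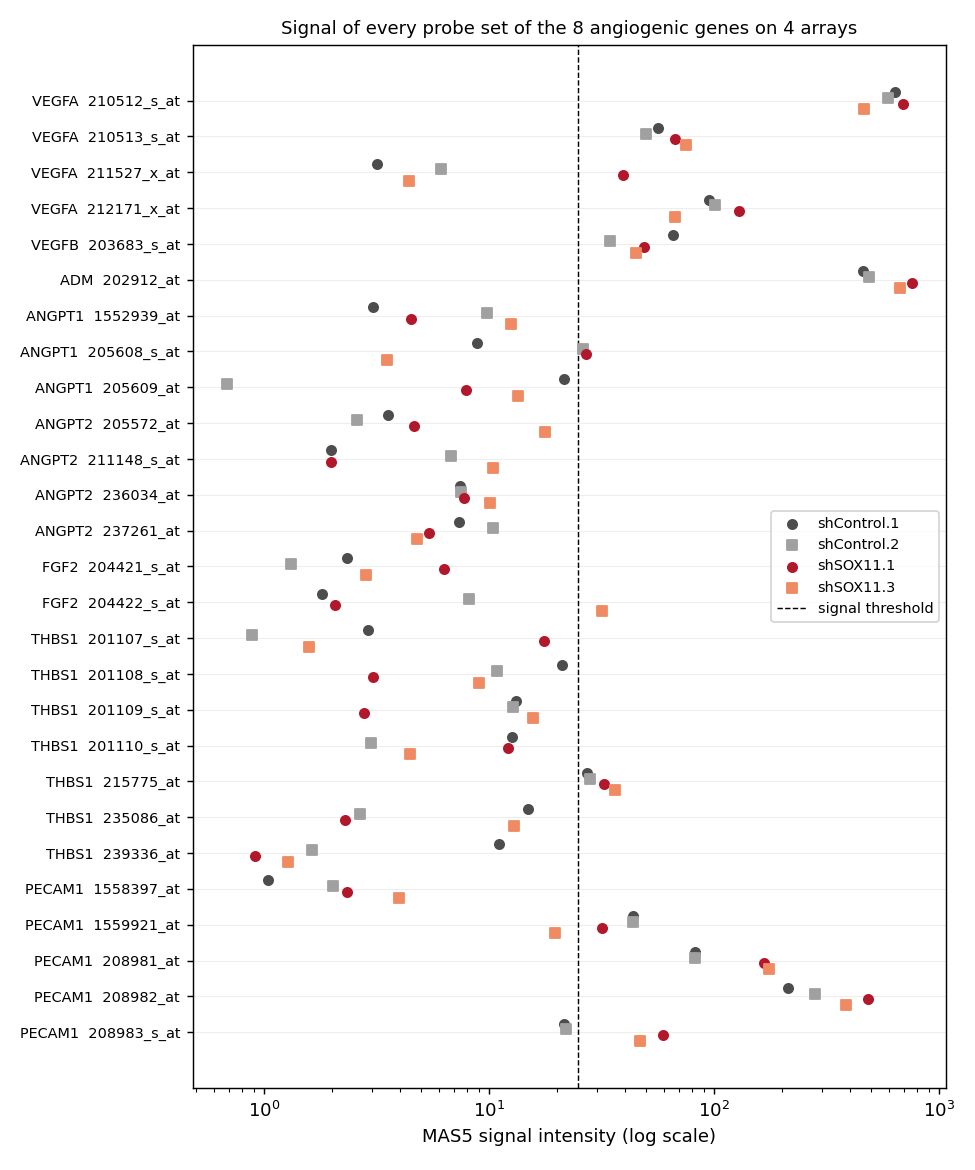
MAS5 signal intensity (horizontal log axis) of all 27 probe sets of the 8 genes, 1 point per array, with the signal threshold of 24.83 as a dashed line. The 8 probe sets right of the line on all 4 arrays are 3 of VEGFA, 2 of PECAM1 and 1 each of VEGFB, ADM and THBS1, while ANGPT2 and 6 of 7 THBS1 probe sets lie left of it on every array.

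None of the 11 tested probe sets passed limma's adjusted p of 0.05 over the 28202 probe sets tested, where 1 probe set passed (0.00355% of those tested), and the smallest adjusted p among the 11 was 0.350. At an unadjusted limma p under 0.05 there were 4, all higher on the knockdown arrays (1 of ADM and 3 of PECAM1), against 4.50% of all probe sets tested that were higher by this measure. The same 4 of 11 was found by limma without its intensity trend and by its robust fit, again with 0 past the adjusted threshold. The groups did not overlap for 6 probe sets that were higher and 1 that was lower, where 18.9% and 21.8% of all probe sets tested did so. One PECAM1 probe set in both counts, 208983_s_at, was tested only because the knockdown arrays lifted it over the threshold, so it had to differ. With each array centred on its median, higher ones made up 61.5% in place of 46.4% of all probe sets without overlap and 75.1% in place of 54.5% of those with an unadjusted p under 0.05, so directions over the whole table depend on this choice. Probe sets of 1 gene share a source and are not independent. Over the 11 the median log2 change was 0.30, against -0.030 over all probe sets tested.

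Adrenomedullin was the secreted factor of the set with the clearest separation. Its 1 probe set (202912_at) stood at 460 and 487 on the control arrays and at 757 and 667 on the knockdown arrays. Both shSOX11 values were above both shControl values, and the smallest of the 4 between-group ratios was 1.37. The log2 means were 8.89 ± 0.06 and 9.47 ± 0.13 (SD, n = 2 each), so that the knockdown arrays stood at 150.1% of the control level, a log2 change of 0.59 (SE 0.17, 95% interval 0.20 to 0.97). Its limma p was 0.0071 unadjusted and 0.476 adjusted over all probe sets, so among all probe sets it was not past the threshold. Against the control mean the log2 difference was 0.68 with shSOX11.1 and 0.49 with shSOX11.3, and the 2 control arrays differed by 0.08.

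The sequence just upstream of ADM is shown because it is the secreted member with the smallest limma p, and that of FGF2 because it is a member whose signal stayed under the threshold on all but 1 of its 8 values. Both are the 250 bases before the gene's start in RefSeq (GRCh38.p14), 5′ to 3′ on the + strand, at chr11:10304823-10305072 for ADM and chr4:122826581-122826830 for FGF2. Capitals mark the TATA box, TATAAA, and the core of the hypoxia response element, searched as GCGTG and in its other common form as ACGTG, always on both strands.
ADM: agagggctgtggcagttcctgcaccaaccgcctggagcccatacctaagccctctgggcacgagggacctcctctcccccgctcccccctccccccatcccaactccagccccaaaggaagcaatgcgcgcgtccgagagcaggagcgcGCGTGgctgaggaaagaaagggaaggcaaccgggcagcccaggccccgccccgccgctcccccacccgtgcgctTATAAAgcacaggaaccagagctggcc
FGF2: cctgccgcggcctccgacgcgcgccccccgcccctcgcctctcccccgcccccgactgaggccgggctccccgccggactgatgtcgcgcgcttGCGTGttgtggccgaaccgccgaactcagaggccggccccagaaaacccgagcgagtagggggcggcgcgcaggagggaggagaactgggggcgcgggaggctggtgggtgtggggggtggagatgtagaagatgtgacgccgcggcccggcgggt

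RefSeq upstream sequences were matched for 4 of the 8 genes (VEGFB, ADM, FGF2 and THBS1), and VEGFA, ANGPT1, ANGPT2 and PECAM1 had no match. Each of the 4 windows held GCGTG once, at 101 bases before the start for ADM and 156 for FGF2, and none held ACGTG. Of all 35116 windows of this length 43.2% held at least one of these cores. TATAAA stood in the ADM window alone among the 4, 27 bases before the start, and in 10.7% of all windows. The GC box GGGCGG stood in all 4 and in 42.6% of all windows. Of the cores recognised by SOX proteins, ACAAAG and the alternative form AACAAT stood in none of the 4, and in 13.7% and 8.98% of all windows. These letters describe the windows only and say nothing of whether a factor binds there.

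VEGFA showed no common direction, since its main probe set was above the controls with one SOX11 hairpin and below them with the other. At the VEGFA probe set with the highest mean signal (210512_s_at) the signal was 636 and 595 on the control arrays, 693 with shSOX11.1 and 463 with shSOX11.3. The knockdown arrays thus lay on either side of both control arrays, and the groups overlapped. The log2 change was -0.12 (SE 0.21, limma adjusted p = 0.886). Its 95% interval, from -0.61 to 0.37, spans both directions. A second VEGFA probe set (212171_x_at, of the kind marked for possible cross-hybridization) had the same order of arrays, at 94.5 and 100.4 on the control arrays, 129 with shSOX11.1 and 67.0 with shSOX11.3. Its log2 change was -0.068 (SE 0.32), turning to 0.015 when each array was centred on its median. The third (210513_s_at) was higher on both knockdown arrays, at 67.0 and 74.6 against 56.4 and 50.0, with a log2 change of 0.41 (SE 0.29, limma adjusted p = 0.704). The fourth (211527_x_at) was under the threshold on 3 arrays, at 3.17, 6.12 and 4.40, and at 39.2 with shSOX11.1. The 3 tested VEGFA probe sets therefore disagree in direction, and with shSOX11.1 all 3 were above both control arrays.

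VEGFB had 1 probe set (203683_s_at), at 65.8 on shControl.1, 34.6 on shControl.2, 48.7 with shSOX11.1 and 44.8 with shSOX11.3. Both shSOX11 values lay between the shControl values. The log2 change was -0.029 (SE 0.40, 95% interval -0.93 to 0.88, limma adjusted p = 0.988), and it turned to 0.053 when each array was centred on its median.

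**Figure D2:**
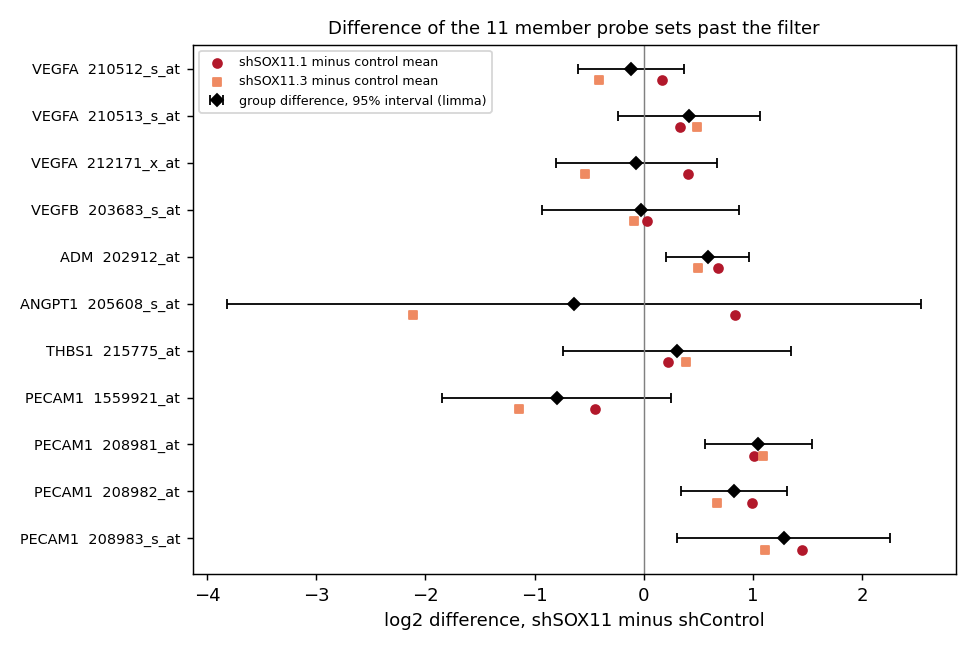
Log2 difference (horizontal axis, shSOX11 minus shControl) of the 11 tested probe sets. Diamonds with bars are the group difference and its 95% interval from limma, and the coloured points are each shSOX11 array minus the control mean. The ADM probe set and 3 of the 4 PECAM1 probe sets lie right of 0 with their intervals, while the 2 hairpins fall on opposite sides of 0 at 2 of the 3 VEGFA probe sets.

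The other vessel ligands among the 8 members were mostly under the threshold in these cells. ANGPT2 was under the threshold at all 4 probe sets on every array, between 1.98 and 17.6. FGF2 lay between 1.32 and 8.14 at its 2 probe sets, apart from 31.6 at 1 of them (204422_s_at) with shSOX11.3. ANGPT1 was under the threshold throughout at 2 of its 3 probe sets. The third ANGPT1 probe set (205608_s_at) stood at 8.81 and 26.05 on the control arrays and at 27.0 and 3.51 on the knockdown arrays, with 1 array of each group just over the threshold. Its log2 change of -0.64 (SE 1.40) had a 95% interval from -3.81 to 2.54 and a limma adjusted p of 0.914. No difference in ANGPT1, ANGPT2 or FGF2 was measurable at these signals.

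THBS1, the inhibitor among the members, was under the threshold on all 4 arrays at 6 of its 7 probe sets, between 0.89 and 21.1. The remaining one (215775_at) was just over it, at 27.3 and 28.1 on the control arrays and 32.4 and 36.2 on the knockdown arrays. The groups did not overlap there, and the shSOX11 values were 1.24-fold higher in the mean (log2 change 0.30, SE 0.46, limma adjusted p = 0.861).

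PECAM1 had the smallest limma p and the highest fold of the 6 tested members. At 208982_at, its probe set with the highest mean signal, the control arrays stood at 212 and 280 and the knockdown arrays at 483 and 387. That is 1.78-fold higher, from a log2 mean of 7.93 ± 0.28 to one of 8.76 ± 0.22 (SD, n = 2 each) and a log2 change of 0.83 (SE 0.21, limma adjusted p = 0.453 over all probe sets). The replicates were closer at 208981_at, with 82.2 and 82.4 on the control arrays and 166 and 175 on the knockdown arrays. There PECAM1 was 2.07-fold higher (log2 change 1.05, SE 0.21, 95% interval 0.56 to 1.54), and each of the 4 between-group pairs of arrays was at least 2.02-fold apart. Its limma p was 0.00096 unadjusted and 0.350 adjusted, the smallest of the members. With 1 array left out its log2 change was 1.09 without shSOX11.1 and 1.01 without shSOX11.3. It was 1.05 without shControl.1 and also without shControl.2. At 208983_s_at the control arrays were under the threshold, at 21.5 and 22.0, and the knockdown arrays stood at 59.3 and 47.0, so only a bound holds, at least 2.13-fold higher (limma adjusted p = 0.530, measured log2 means 4.44 and 5.72). By the rule of 1.5-fold on all 4 pairs, under which 1.45% of all probe sets tested were higher, 208981_at was past it, and so was 208983_s_at, which is not read against that share because only the knockdown arrays brought it into the test.

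The other 2 PECAM1 probe sets did not have this order of groups above the threshold. At 1559921_at the control arrays stood at 43.5 on both, with 31.8 with shSOX11.1 and 19.6 with shSOX11.3, the last under the threshold (log2 change -0.80, SE 0.46, limma adjusted p = 0.659). The fifth (1558397_at) lay between 1.04 and 3.98 on the 4 arrays. With the mean of its tested probe sets in place of the one with the highest signal, PECAM1 had a log2 change of 0.59 in place of 0.83.

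Since PECAM1 marks endothelium, platelets and leukocytes, marker genes of those cells were read on the same arrays. Of 15 endothelial markers, 11 were under the threshold on all 4 arrays, among them the defining genes CDH5 (1.61 to 3.39), VWF (2.99 to 15.96) and CLDN5 (1.85 to 9.96), and their summed signal was 233 and 171 on the control arrays and 171 and 187 on the knockdown arrays. The 1 endothelial marker tested was the receptor TIE1, which was lower on both knockdown arrays (28.8 and 43.9 against 64.2 and 61.7). Of 7 platelet markers analysed, 3 were under the threshold throughout, and their summed signal was 137 and 115 against 117 and 110. The 2 tested were the collagen receptor GP6 and the integrin chain ITGA2B. GP6 was under the threshold on the control arrays and higher on the knockdown arrays (17.9 and 20.4 against 37.4 and 29.3, limma adjusted p = 0.685). ITGA2B was lower on the knockdown arrays and under the threshold there (32.5 and 25.8 against 20.9 and 4.51, limma adjusted p = 0.653). Either gene was tested only through the group where it was high, so its groups had to differ. The platelet granule chemokine PF4 was at 25.9 and 11.6 against 5.73 and 15.6. Of 9 myeloid markers, CD14 (1.97 to 5.66) and LYZ (4.93 to 12.7) were under the threshold on every array, while CSF3R (8.51 and 7.67 against 30.6 and 30.3) and CSF1R (15.1 and 8.98 against 25.7 and 28.9) were under it on the control arrays and just over it on the knockdown arrays. CSF3R and CSF1R were tested only through the knockdown arrays, so their groups had to differ. All 3 myeloid markers tested were higher in the mean, and these 2 were 1.5-fold apart on all 4 pairs. CSF3R alone had an unadjusted limma p under 0.05 (0.0456, adjusted 0.587). The third, ITGAM, had groups that overlapped (log2 change 0.10). The summed myeloid signal was 147 and 126 against 163 and 145. Of the 10 T and NK cell markers 2 were tested and of the 10 stromal markers 5, and none of these had a limma p under 0.05, adjusted or not. Of the 5 stromal markers tested, 2 were higher and 3 lower. THY1, a stromal surface protein, was 1.5-fold lower on all 4 pairs, at 32.9 and 32.8 against 19.4 and 9.30, where 1.93% of all genes were lower by that rule. It is not read against that share, because only the control arrays brought it into the test and it had to differ. The summed signal was 290 and 303 against 278 and 276 for the T and NK cell list, and 1349 and 1259.6 against 1385 and 1063 for the stromal list. The largest signal in the former was that of CD3G, at 160 and 207 against 129 and 203. In the stromal list it was that of COL1A1, at 1063 and 1012 against 1047 and 881. The B-cell markers of the line itself, with the targeted SOX11 among them, were for the most part lower, as given above. The part of any of these markers in the PECAM1 result was not tested beyond these values.

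The receptors of the 8 members came next, given whatever their values. FLT1, the receptor for both VEGFA and VEGFB, was above the threshold on all arrays, at 80.6 and 109 on the control arrays and 96.7 and 90.7 on the knockdown arrays. KDR, the main VEGFA receptor of endothelium, was under the threshold throughout (5.21 to 24.7), and so was the co-receptor NRP1 (2.35 to 13.9). NRP2, another co-receptor, was at 38.1 and 39.2 against 38.0 and 18.6. TEK, the angiopoietin receptor, lay between 1.22 and 5.57.

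Adrenomedullin signals through CALCRL together with RAMP2 or RAMP3. CALCRL (5.67 to 14.4) and RAMP2 (1.64 to 6.35) were under the threshold on all arrays, and RAMP3 was at 28.5 and 14.5 on the control arrays and 3.40 and 7.21 on the knockdown arrays. RAMP1 was above it on all 4, at 70.5 and 48.1 against 34.4 and 58.9. ACKR3, reported as a scavenging receptor of adrenomedullin, was over the threshold on shControl.1 alone, at 26.3. CALCRL, which the RAMP proteins need as their partner for adrenomedullin, thus had no signal above the threshold in either group.

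At its probe set with the highest mean signal, FGFR1, a receptor of FGF2, was at 230 and 227 on the control arrays. The knockdown arrays stood at 148 and 273 there, with the hairpins on either side of the controls. Of the 7 FGFR1 probe sets 5 were tested, and all 5 were lower in the mean on the knockdown arrays. For thrombospondin, CD47 was at 1877 and 1860.1 against 1908 and 1592, and CD36 lay under the threshold (6.85 to 12.8). Of the 24 receptors and receptor partners listed, 12 were tested, with 3 higher and 9 lower and a median log2 change of -0.13, against -0.063 over all 11938 genes. None passed limma's adjusted p of 0.05, and 1 was under an unadjusted 0.05, where 8.38% of all genes were. It was ITGB1, the beta-1 integrin chain, at 1322 and 1380.3 against 2007 and 2242 (log2 change 0.65, SE 0.14, limma adjusted p = 0.337). TIE1 followed with a log2 change of -0.82 (SE 0.37, limma adjusted p = 0.591).

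**Figure D3:**
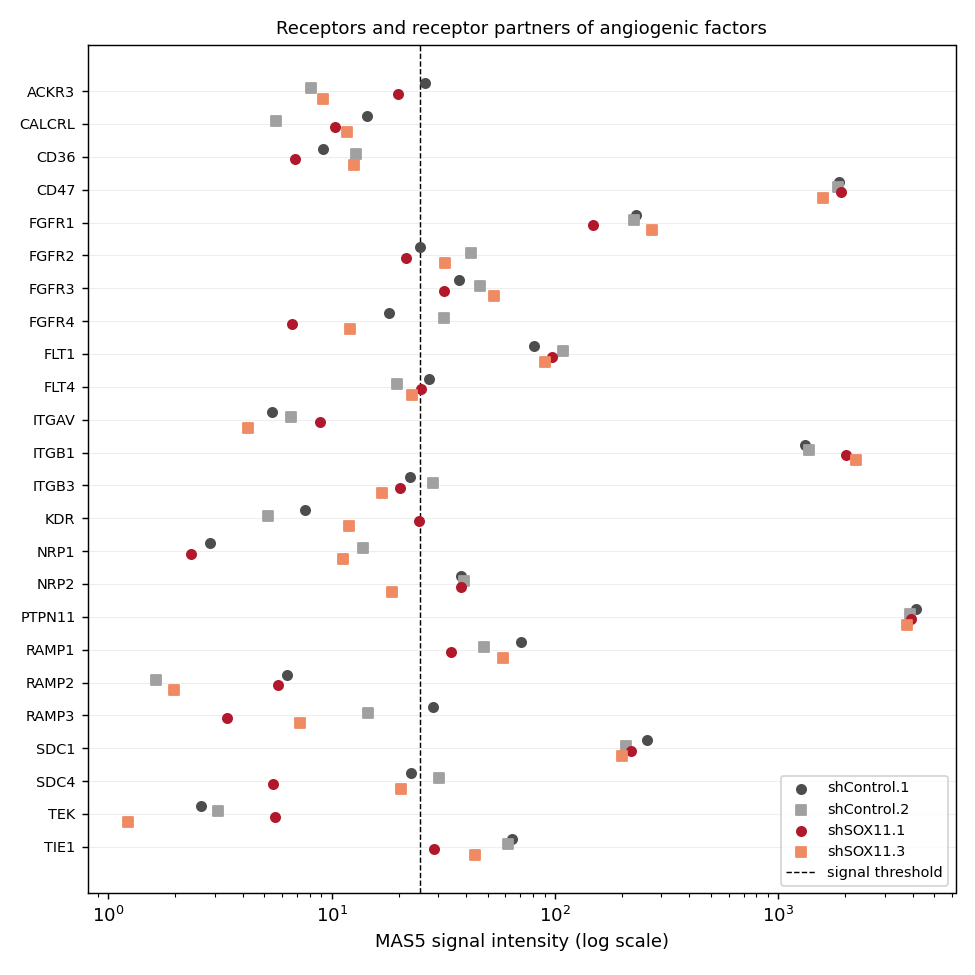
MAS5 signal intensity (horizontal log axis) of 24 receptors and receptor partners, each at its probe set with the highest mean signal, 1 point per array, with the threshold of 24.83 dashed. KDR, NRP1, TEK, CALCRL, RAMP2 and CD36 lie left of the line on all 4 arrays, and ITGB1 is the one past an unadjusted limma p of 0.05.

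Other secreted factors of vessel growth were for the most part not above the threshold on enough arrays to be tested. Of 18 analysed, 8 were tested, 3 higher and 5 lower, with a median log2 change of -0.54, and 0 passed limma's adjusted p of 0.05. An unadjusted p under 0.05 was found for 2, both lower and both at least 1.5-fold apart on all 4 pairs, where 4.98% and 1.93% of all genes were lower by these rules. These were PDGFA, a chain of the platelet-derived growth factor (1175 and 1160.4 against 470 and 665), and midkine, MDK, a heparin-binding growth factor (99.1 and 107 against 56.4 and 28.9, log2 change -1.35, SE 0.37, limma adjusted p = 0.405). ADM2, a peptide related to adrenomedullin, was at 72.7 and 68.3 on the control arrays, 82.5 with shSOX11.1 and 9.97 with shSOX11.3, and so showed no common direction with ADM.

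Inhibitors of vessel growth had 6 of 13 members tested, 4 higher and 2 lower, with a median log2 change of 0.10 and 0 past limma's adjusted p. SPRY2, which dampens receptor tyrosine kinase signalling, was the 1 under an unadjusted 0.05, where 8.38% of all genes were, at 119 and 113 against 80.6 and 75.9 (log2 change -0.57, SE 0.23, limma adjusted p = 0.562). Its relative SPRY1 and the vasohibin VASH2 had log2 changes of 0.14 (SE 0.24) and 0.12 (SE 0.23).

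VEGFA and ADM are both targets of the hypoxia-inducible factor, so the genes of oxygen sensing and other hypoxia targets were read beside them. HIF1A, the oxygen-regulated subunit, was at 2026 and 1959.7 on the control arrays and 2154 and 1911 on the knockdown arrays, a log2 change of 0.03 (SE 0.14). Of 7 tested genes of oxygen sensing, 5 were higher and 2 lower, with 0 under an unadjusted limma p of 0.05. The smallest p values there belonged to the oxygen sensor EGLN1 (519 and 513 against 672 and 530), to CITED2, which limits hypoxia-inducible factor (94.8 and 94.3 against 126 and 95.05), and to ARNT, the partner of HIF1A (231 and 148 against 109 and 245).

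Of the 19 other hypoxia targets tested, 13 were higher and 6 lower, with a median log2 change of 0.16 against -0.063 over all genes. None passed limma's adjusted p of 0.05, and 3 had an unadjusted p under 0.05, all higher, where 3.40% of all genes were. These were BNIP3L, a mitophagy receptor (470 and 473 against 721 and 602, log2 change 0.48, SE 0.16), P4HA1, a collagen prolyl hydroxylase (175 and 139 against 328 and 202, log2 change 0.72, SE 0.26), and ANKRD37, a small ankyrin repeat protein (405 and 354 on the control arrays, 1743 with shSOX11.1 and 480 with shSOX11.3, log2 change 1.27, SE 0.48), with limma adjusted p from 0.509 to 0.544.

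As with VEGFA, more of the hypoxia targets lay above the controls with shSOX11.1 than with shSOX11.3. With shSOX11.1, 14 of the 19 were above both control arrays, where 36.1% of all genes were, and their median was 0.41 above the control mean on the log2 scale, against -0.0043 for all genes. With shSOX11.3, 6 of the 19 were above both, where 29.3% of all genes were, and their median was -0.012, against -0.098. ADM was above both control arrays on either hairpin, while VEGFA at its probe set with the highest mean signal was 0.17 above the control mean with shSOX11.1 and -0.41 with shSOX11.3. With 1 array per hairpin the difference between hairpins has no replicate and was not tested, and the median signal and beta-actin ratio given above also differed between these 2 arrays. Without shSOX11.3 the log2 change was 0.68 for ADM and 0.99 for PECAM1, and without shSOX11.1 it was 0.49 and 0.67. Without shControl.1 the log2 changes of ADM and PECAM1 were 0.55 and 0.63, and without shControl.2 they were 0.63 and 1.03. Each of these fits leaves 1 group with a lone array. A gene's own spread then comes from the other group, and limma moderates it with the spread of all genes tested.

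**Figure D4:**
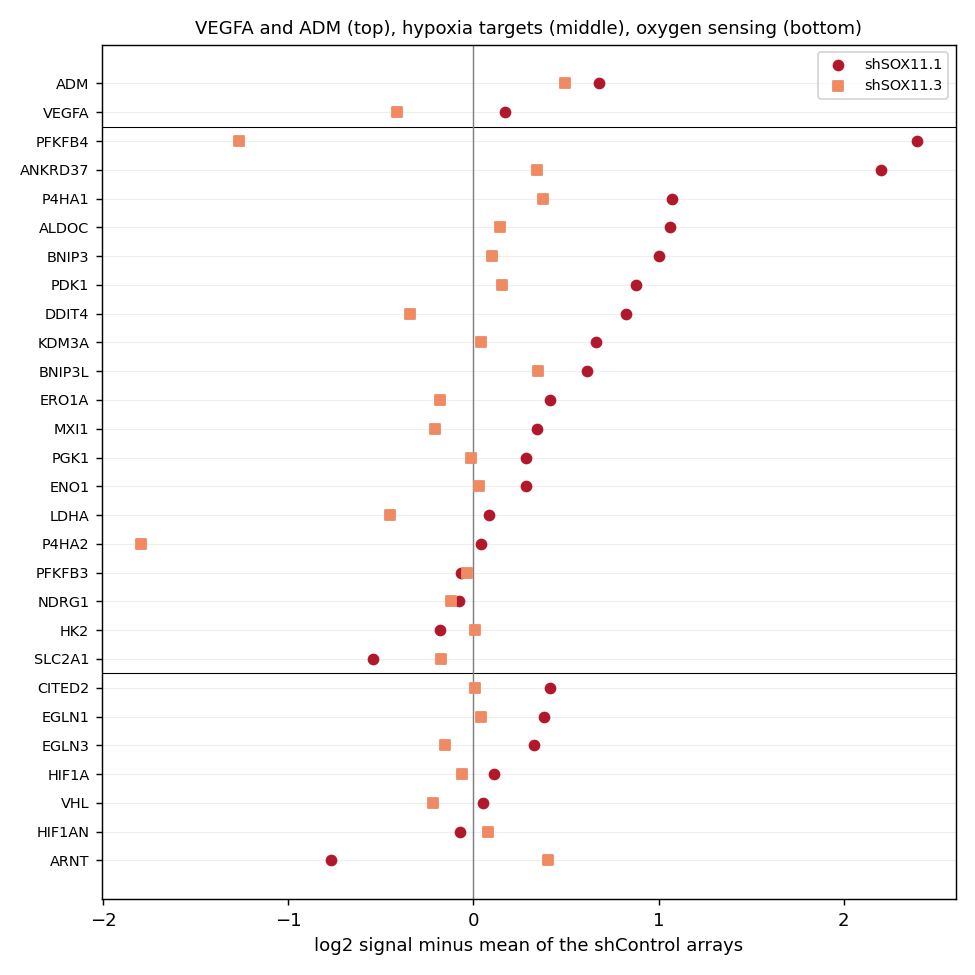
Log2 signal minus the mean of the 2 control arrays (horizontal axis) for VEGFA and ADM, 19 hypoxia targets and 7 genes of oxygen sensing, with shSOX11.1 as circles and shSOX11.3 as squares. With shSOX11.1, 14 of the 19 targets exceeded both control arrays, against 6 with shSOX11.3, and ADM lies right of 0 on both.

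The genes with the profile most like that of each tested member were found by the distance between log2 profiles over the 4 arrays, each centred on its own mean. Next to PECAM1 were TARS3, MTCL1 and NFIA, at distances of 0.036 to 0.086. Next to ADM were RALB and ZFP82, after the uncharacterised LOC101927143, at 0.049 to 0.059. Within a distance of 0.25 lay 23 genes for PECAM1, 189 for ADM and 1191 for VEGFA, whose nearest were CYB5D1, FHIP1A and EGR4. VEGFB was nearest to FBXL18, DTWD1 and PAX7 (0.061 to 0.081), THBS1 to SH3YL1, AFDN and LAMP5 (0.018 to 0.030) and ANGPT1 to ZDHHC19, FAM124A and RNASE1 (0.42 to 0.49). With 4 arrays many genes share a profile, so these names are a description only.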

How the data were processed

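The members and gene lists were chosen with earlier results of these data known. The deposited table gives each probe set's intensity as a linear MAS5 signal, and the submitters' processing notes name Affymetrix Expression Console and MAS5. Versions, scaling target and genome build are not stated in the sources used here. The 2% trimmed mean was 150 on every array. The 62 control probe sets were left out, and log2 values were used with no pseudocount or added normalization. A probe set entered the test, as 28202 did, when 2 or more arrays exceeded 24.83, the median over the whole table. Member probe sets were tested each on their own, and pathway genes by the brightest tested probe set (11938 genes), both with limma 3.58.1 in R 4.3.3 (lmFit, eBayes with intensity trend, two-sided, Benjamini-Hochberg over all tested, threshold 0.05, 2 residual degrees of freedom), tested on simulated data. A 1.5-fold rule over all 4 pairs of arrays stood beside it. Named were all members, their main receptors and HIF1A, and from each pathway list (growth factors, receptors, inhibitors, oxygen sensing, hypoxia targets) genes past either rule (at most 6), filled to 3 by smallest p. Single genes of the cell type marker lists were chosen after their values were seen. Alternatives were median centring, quantile normalization, a pseudocount of 32, other filters, other variance models, the mean of probe sets, no _x_at probe sets, a 2-fold rule, an adjusted threshold of 0.10 and leaving out each array.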

Additional observations from a re-analysis of the deposited data

How the results depend on the processing

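No paired analysis was possible because the labels name no pairs of shControl and shSOX11 samples. ADM (0.49 to 0.68 with 1 array left out) and PECAM1 (0.63 to 1.03) kept their direction under every alternative run, and so did THBS1 (0.22 to 0.39) where it passed the filter. VEGFA (-0.41 to 0.17) turned without shSOX11.3, and to 0.075 with the mean of its probe sets. VEGFB (-0.49 to 0.44) turned to 0.053 with median centring, and without shControl.1 or shSOX11.3 (0.031). ANGPT1 (-2.11 to 0.83) turned without shControl.2 (0.14) or shSOX11.3. Of the single VEGFA probe sets, 210512_s_at turned to 0.17 and 212171_x_at (-0.54 to 0.40) to 0.40 without shSOX11.3, and the latter to 0.015 with median centring. SOX11 lay between -1.24 and -1.23 with each array left out in turn. A pseudocount of 32 brought PECAM1 208983_s_at from 1.28 to 0.66, 1559921_at from -0.80 to -0.39, VEGFA 210513_s_at from 0.41 to 0.27, THBS1 from 0.30 to 0.15 and ANGPT1 from -0.64 to -0.089.

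Genes past limma's adjusted p numbered 0 with all arrays and 0 to 953 with 1 left out. The 1 probe set past it became 0 with median centring, the 65th percentile filter, no filter, no trend or no _x_at probe sets, and 0 to 1585 with 1 array left out, when PECAM1 208981_at passed without shSOX11.1 (1.09, limma adjusted p = 0.0317). Genes 1.5-fold apart on all pairs numbered 321, with 87 at a pseudocount of 32, 763 and 131 at the 35th and 65th percentile filters, 1414 without a filter, 76 at 2-fold, and 826 to 1387 with 1 array left out. For probe sets these were 936, 226, 2147, 376, 4661, 226 and 2421 to 4144. With median centring the share of higher among genes with an unadjusted p under 0.05 went from 40.6% to 64.8%, and among probe sets from 54.5% to 75.1%, while the 4 member probe sets with such a p stayed 4. With a pseudocount of 32, 1 member probe set was 1.5-fold apart on all pairs in place of 2. Tested as genes, ADM (0.68) and PECAM1 (0.99) passed limma's adjusted p without shSOX11.3 and in no other run. That fit leaves a lone knockdown array, so no weight is put on the pass. Among genes 1.5-fold apart median centring moved the share of higher from 28.3% to 46.1%. Signals near the threshold limit THBS1 and ANGPT1, and the cause of these moves was not tested.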
